A study of Mus musculus with 87 samples.

Results

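The comparison set 2 inbred mouse strains, C3H/HeJ and FVB/NJ, against each other across 6 brain regions. Arrays were taken by their titles: 13 of C3H/HeJ and 12 of FVB/NJ, together 25 of the 87 arrays of the series, with the 4 pituitary arrays of these strains left out. All were from untreated wild-type males 8 weeks of age. The regions were the amygdala, the bed nucleus of the stria terminalis, the cingulate cortex, the hippocampus, the hypothalamus and the periaqueductal gray, a midbrain region. Each strain had 2 arrays a region, except the C3H/HeJ bed nucleus with 3, and each array held RNA of 1 to 3 mice, pooled where there was more than 1. RNA of the amygdala and cingulate cortex was amplified from 50 ng in 2 rounds, and that of the other 4 regions was labelled from 10 µg in 1 round. The other 4 strains of the series (129S6/SvEvTac, A/J, C57BL/6J and DBA/2J) entered the model to share the estimate of the spread.

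Inbred strains are genetically uniform within a strain and differ from each other at many fixed variants. C3H/HeJ is known for a defective endotoxin receptor gene (Tlr4) and for making melatonin. FVB/NJ is an albino strain that lacks complement C5 (Hc) and is widely used for transgenesis. Both strains carry the retinal degeneration allele of Pde6b and are blind as adults. Their histocompatibility haplotypes differ. A probe set on this array reads a short stretch of a transcript, and a difference in RNA amount and a difference in how well the RNA of a strain binds the probes cannot be told apart from the values used here. In such bulk tissue, fewer cells of a type and less RNA per cell cannot be told apart either.

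Array medians lay between intensities of 44.8 and 65.7, and replicate arrays correlated at 0.962 to 0.982 over 14 pairs. The experiment files name the animals: 18 of the 25 arrays shared an animal with another array, and the arrays came from 8 separate groups of animals in C3H/HeJ and 7 in FVB/NJ. Both FVB/NJ bed nucleus arrays name the same animals, so their spread may be technical. The region labels were checked by marker lists. Of 10 hippocampal genes tested, 8 in C3H/HeJ and 10 in FVB/NJ were highest in the hippocampus. Of 9 hypothalamic genes, 9 and 7 were highest in the hypothalamus. Of 12 midbrain genes, 9 in each strain were highest in the periaqueductal gray, whereas of 12 subpallial genes 5 in each strain were highest in the bed nucleus. The arrays were scanned on 11 days, of which 4 held both strains and 1 held both strains in the same region. The 4 arrays labelled as pituitary gland of these strains, not used in the comparison, had the opposite sign for 54 of the 54 probe sets called below (median difference in the brain's direction -1.20, against 1.33 in the brain), so their labels are in doubt.

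Between the strains, 54 of 8121 probe sets differed at least 2-fold over the 6 regions at an adjusted p below 0.05 (0.665% of those tested). Of these, 28 were higher in C3H/HeJ (0.345%) and 26 lower (0.32%). They named 40 genes through 45 probe sets, and the others had no single gene symbol. All 54 had the same sign in 6 of 6 regions, which held for 6.56% of all probe sets tested. In 30 of the 54, every C3H/HeJ array lay on one side of every FVB/NJ array, against 39 probe sets (0.48%) among all tested. With no fold minimum, 603 probe sets passed (7.43%), of which 277 were higher (3.41%) and 326 lower (4.01%), and 1354 had an unadjusted p below 0.05. The median difference over all 8121 was -0.0057 on the log2 scale. Just inside the 2-fold limit lay Folh1 (1.01) and an H2-K1 probe set (-1.01), and just outside it Gas5 98530_at (-0.998) and Eif2s3y (0.996). Differences are C3H/HeJ minus FVB/NJ on the scale log2(intensity + 16), tested with limma, with standard errors (SE) and p-values adjusted over all 8121 probe sets. The p-values measure the spread between these arrays, some of which share animals.

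**Figure D1:**
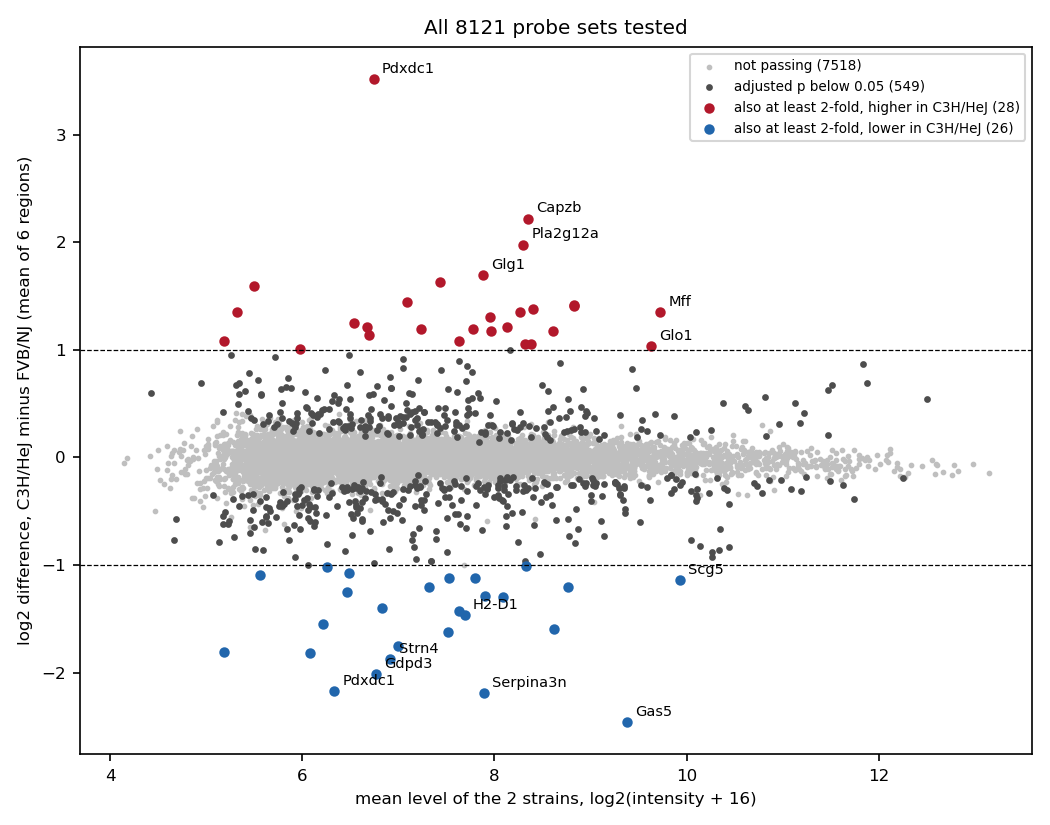
Log2 difference between C3H/HeJ and FVB/NJ, as a mean of 6 regions (vertical axis), against the mean level of both strains in log2(intensity + 16) (horizontal axis), with 1 point for each of 8121 probe sets. Red points (28) and blue points (26) passed an adjusted p of 0.05 and 2-fold, the dashed lines, and most other points lie close to 0.

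The called genes are arranged here by known role, an order made after the calls were seen, and no role was tested. Among those higher in C3H/HeJ, Capzb encodes the beta subunit of the protein that caps actin filaments. Its probe set 95142_s_at read 329, 827 and 1025 (lowest, median and highest array) in C3H/HeJ and 88.7, 123 and 233 in FVB/NJ. No C3H/HeJ array came down to the FVB/NJ arrays. The difference was 2.22 ± 0.062 (SE, adjusted p 1.06e-30), or 4.66-fold. A further Capzb probe set, 161329_f_at, was also higher in C3H/HeJ (0.62, adjusted p 1.03e-07), and 95141_at, near background at 30.1 and 36.2, did not pass (-0.18, adjusted p 0.653).

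Glg1, a Golgi glycoprotein, read 222, 440 and 601 in C3H/HeJ and 48.2, 141 and 196 in FVB/NJ on 94364_at, without overlap. The difference was 1.69 ± 0.084, but a second probe set of the gene, 100457_at, read 552 against 543 (0.02, adjusted p 0.920). Syt4, a synaptotagmin of secretory vesicles, read 100.1, 205 and 383 against 49.9, 63.6 and 88.0, also without overlap, with a difference of 1.45 ± 0.148. Srp9 belongs to the signal recognition particle, which brings nascent secreted proteins to the endoplasmic reticulum. It read 440, 574 and 1614 against 106, 233 and 586. These ranges overlapped because all levels were higher in the amygdala and cingulate cortex, but within each region both strains stayed apart (1.42 ± 0.069).

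Of the called genes with a known place in mitochondria or peroxisomes, Mff, the receptor that recruits the fission machinery to mitochondria and peroxisomes, read 899, 1086 and 2696 in C3H/HeJ and 385, 472 and 786 in FVB/NJ. All C3H/HeJ arrays exceeded all FVB/NJ arrays, and the difference was 1.35 ± 0.051 (adjusted p 1.18e-25). Abcd3, a peroxisomal membrane transporter, read 488, 571 and 742 against 206, 243 and 282 (1.17 ± 0.053). Acad9, a mitochondrial factor needed to assemble respiratory complex I, read 103, 137 and 232 against 26.6, 55.1 and 70.9 (1.21 ± 0.077). Both were without overlap. Hccs, which attaches heme to cytochrome c, was higher on both of its probe sets (1.08 ± 0.073 and 0.65 ± 0.158). Nudt19, a peroxisomal coenzyme A hydrolase, read 184, 276 and 914 against 70.7, 119 and 297, with a difference of 1.30 ± 0.094 and overlapping ranges.

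Fgf1, a fibroblast growth factor, read 160, 338 and 557 in C3H/HeJ and 48.6, 80.8 and 155 in FVB/NJ (1.64 ± 0.063). Hbegf, a ligand of the epidermal growth factor receptor, read 159, 206 and 304 against 63.7, 84.2 and 134 (1.19 ± 0.086). In both genes the strains did not overlap. Rbbp4, a histone-binding subunit of several chromatin complexes, read 377, 478 and 635 against 118, 186 and 241 (1.35 ± 0.084). Aebp2, a partner of the Polycomb complex that contains Rbbp4, was higher by 1.14 ± 0.063. Strap, a WD-repeat protein that also binds transforming growth factor receptors, read 563, 657 and 1147 against 212, 280 and 330 (1.41 ± 0.080). Rbbp4 and Strap did not overlap between the strains, while the ranges of Aebp2, 72.9 to 260 and 30.5 to 73.8, met at their ends.

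Of the 14 genes with the greatest excess in C3H/HeJ, Pdxdc1 is given below. The others not yet named were the phospholipase gene Pla2g12a, the kallikrein gene Klk1b22, and Asb3 and Rnf13 of the ubiquitin system. Pla2g12a read 490, 618 and 798 against 97.7, 144 and 209 on 104343_f_at (1.98 ± 0.075), while 104342_i_at, made from the same expressed sequence, did not pass (-0.24, adjusted p 0.362). Klk1b22 read 36.4, 67.3 and 84.7 against -1.65, 11.1 and 23.8, so that FVB/NJ was near background. Its family has near-identical members, and the assignment of its signal is uncertain. Asb3 read 26.2, 45.7 and 88.9 against 3.31, 9.24 and 19.1 on 161466_r_at (1.35 ± 0.092), with no difference passing on 104629_at (99.7 and 99.9, adjusted p 0.994). Rnf13, a membrane ubiquitin ligase, differed by 1.22 ± 0.069 on 101965_at and by -0.05 on 101966_s_at (adjusted p 0.894). Of the 12 called genes with more than 1 tested probe set, 5 passed on all of them in the same direction, 6 had a probe set that did not pass, and 1 passed in both directions.

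**Figure D2:**
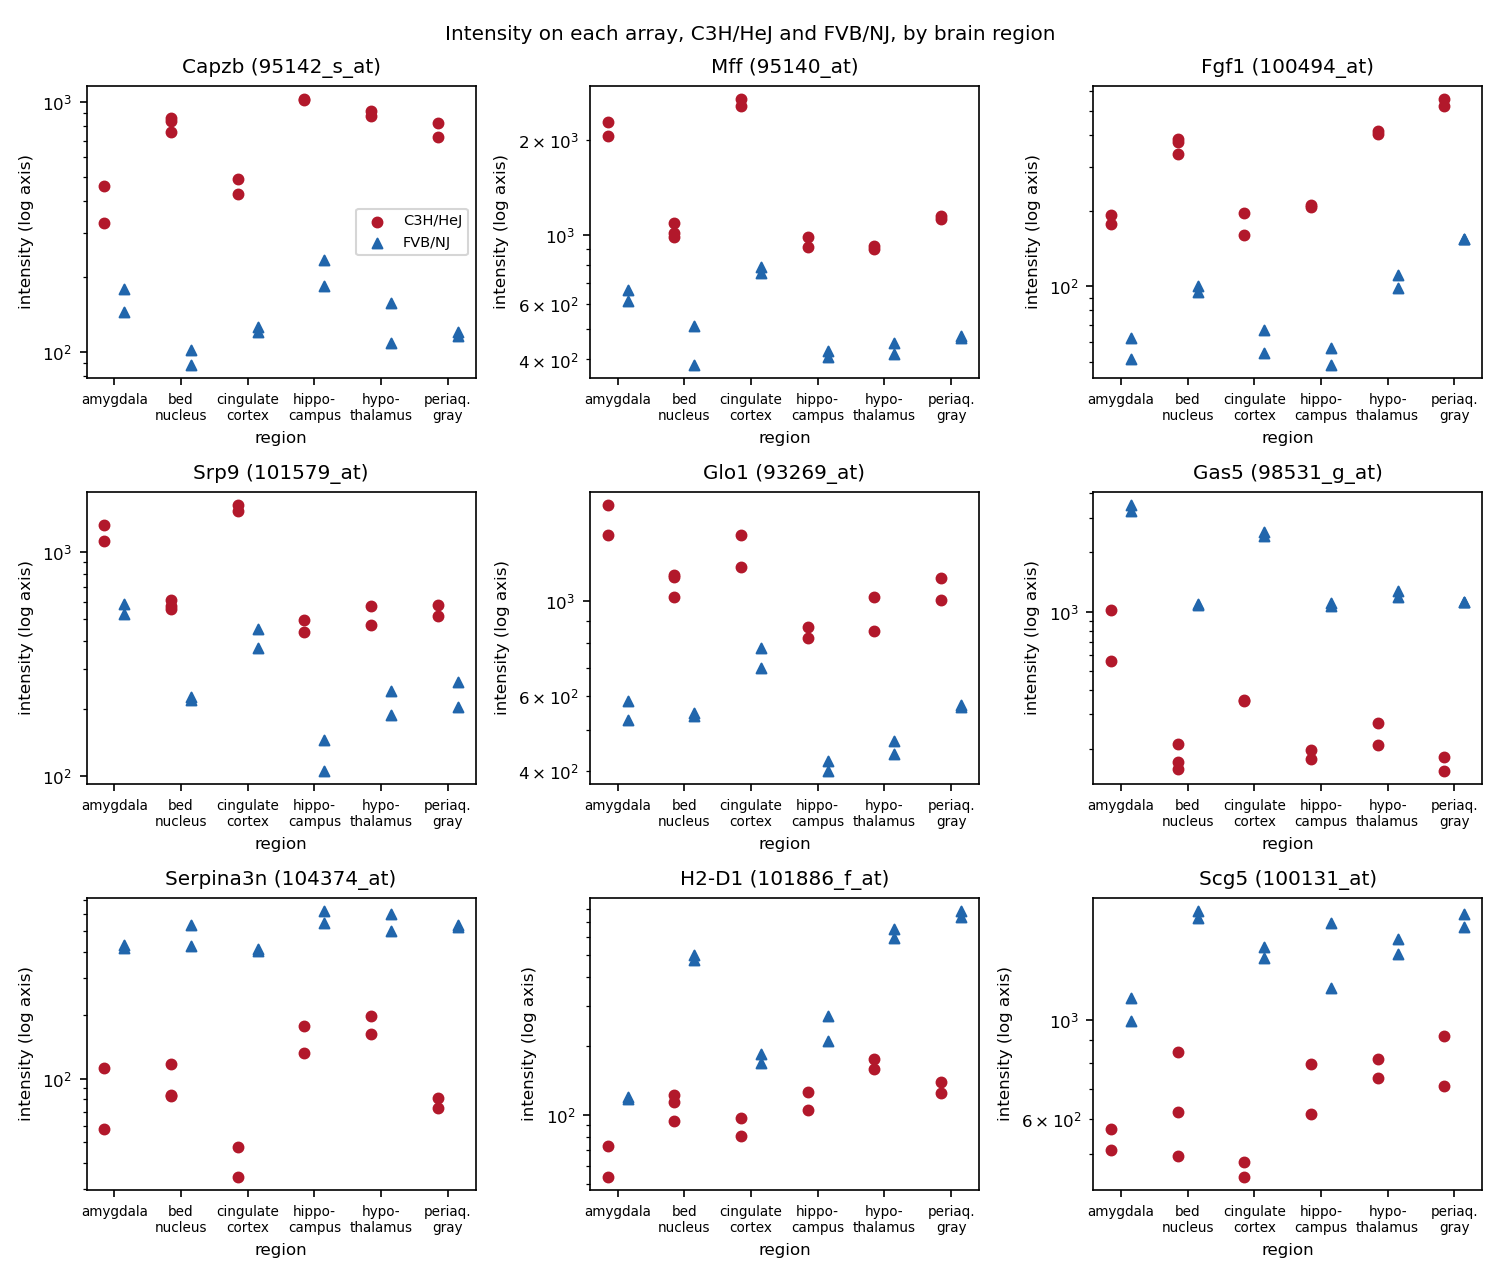
Intensity (log axis) on each of the 13 C3H/HeJ arrays (red circles) and 12 FVB/NJ arrays (blue triangles) by brain region for 9 genes, each point 1 array. Within every region shown the strains separate, with Capzb, Mff, Fgf1, Srp9 and Glo1 higher in C3H/HeJ and Gas5, Serpina3n, H2-D1 and Scg5 lower.

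Gas5 had the greatest deficit in C3H/HeJ. It is a noncoding gene that hosts small nucleolar RNAs in its introns, and its transcript builds up when growth stops. Probe set 98531_g_at read 155, 208 and 1013 in C3H/HeJ and 1066, 1154 and 3477 in FVB/NJ. The highest C3H/HeJ array, from the amygdala, still lay below the lowest FVB/NJ array. The difference was -2.46 ± 0.074 (adjusted p 1.11e-29), and the dimmer 98530_at differed by -0.998 ± 0.112.

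Serpina3n, a secreted protease inhibitor that reactive astrocytes make, read 34.4, 84.0 and 198.5 in C3H/HeJ and 404, 512 and 621 in FVB/NJ. Every FVB/NJ array was above every C3H/HeJ array, and the difference was -2.19 ± 0.085 (adjusted p 2.37e-25). In the cingulate cortex the C3H/HeJ arrays read 47.8 and 34.4 against 404 and 412 (-2.90), and in the hypothalamus 198.5 and 163 against 498 and 601 (-1.52). Gfap, the filament protein of astrocytes, was also lower in C3H/HeJ, by far less (-0.37 ± 0.094, adjusted p 0.00568), a call lost in 5 of 49 alternative settings.

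Kif5b, also lower in C3H/HeJ, is the heavy chain of a kinesin motor. It read 22.5, 147 and 230 against 214, 328 and 433, with the lowest C3H/HeJ arrays in the amygdala and cingulate cortex, and differed by -1.43 ± 0.112. Ergic1, of the compartment between endoplasmic reticulum and Golgi, read 16.1, 25.8 and 41.6 against 57.7, 116 and 181 without overlap (-1.55 ± 0.122). Scg5, the 7B2 protein that helps prohormone convertase 2 mature, read 444, 619 and 917 against 990, 1486 and 1749, again without overlap (-1.14 ± 0.065). Strn4, a scaffold of phosphatase complexes, read 10.6, 41.7 and 109 against 98.1, 166 and 522 (-1.87 ± 0.134). The Strn4 ranges overlapped over the brain, and within each region the strains stayed apart. Gdpd3, a lysophospholipase, read 20.4, 36.1 and 65.4 against 154, 193 and 279 (-2.01 ± 0.086). Otub1, a deubiquitinase, was lower on both probe sets, by -1.30 ± 0.119 and -0.56 ± 0.133. The transcript 4833420G17Rik read 20.2, 40.4 and 62.7 against 87.3, 125 and 161 (-1.25 ± 0.069). Thumpd1 (-1.12), the complement regulator Cd59a (-1.12), the lysosomal lipase Lipa (-1.09) and the peptide transporter Slc15a2 (-1.07) were lower too.

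The 3 probe sets of Pdxdc1, a decarboxylase-like gene, read in opposite directions. On 97713_at C3H/HeJ read 276, 317 and 522 and FVB/NJ -1.80, 15.6 and 46.9, the greatest difference of all probe sets (3.52 ± 0.100). With FVB/NJ near background, its size rests on the pseudocount, and it was 2.35 with a pseudocount of 64. On 94312_at C3H/HeJ read 6.56, 21.4 and 36.3 and FVB/NJ 54.3, 182 and 261 (-2.17 ± 0.118), and 160163_at differed by -1.82 ± 0.146. No direction can be given for the gene as a whole.

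The histocompatibility complex on chromosome 17 held a group of differences. Class I molecules such as H2-K1 and H2-D1 present peptides to cytotoxic T cells, together with beta-2 microglobulin (B2m). Their promoters carry an enhancer bound by NF-kappaB and, beside it, an interferon response element. The promoters of both genes are shown because both genes were lower in C3H/HeJ. They are RefSeq sequences of build GRCm38.p6, from 250 bases before to 50 after the start taken for each gene. For H2-K1 this window lies wholly within the mapped span of the gene, chr17:33996012-34000619, so the start taken is not the outermost one. Both belong to the C57BL/6J reference, whose haplotype is that of neither strain. Capitals mark the letters GGGATTCCC and, after them, TTTCACTTC, both searched on both strands. H2-K1 lies at chr17:34000298-34000597 on the minus strand and H2-D1 at chr17:35262844-35263143 on the plus strand.
H2-K1: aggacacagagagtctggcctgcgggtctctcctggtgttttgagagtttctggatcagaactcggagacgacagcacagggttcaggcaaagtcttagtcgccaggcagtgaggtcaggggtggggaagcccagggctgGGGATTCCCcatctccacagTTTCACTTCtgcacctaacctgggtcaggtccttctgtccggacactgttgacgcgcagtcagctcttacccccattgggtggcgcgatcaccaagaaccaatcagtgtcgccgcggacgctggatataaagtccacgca
H2-D1: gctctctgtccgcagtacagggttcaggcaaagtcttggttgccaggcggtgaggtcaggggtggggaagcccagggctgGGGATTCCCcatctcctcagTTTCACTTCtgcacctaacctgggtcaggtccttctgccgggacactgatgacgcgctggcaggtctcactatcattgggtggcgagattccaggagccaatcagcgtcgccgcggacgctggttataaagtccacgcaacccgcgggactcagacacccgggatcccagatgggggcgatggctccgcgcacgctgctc

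Each promoter holds each motif 1 time. Among 32851 promoters of this length, 0.353% held the first motif and 0.505% the second. The match describes the reference sequence, and the promoters of C3H/HeJ and FVB/NJ were not analysed here.

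H2-D1 was lower in C3H/HeJ in every region on 101886_f_at. The arrays read 139 and 125 against 735 and 779 in the periaqueductal gray, and 122, 94.1 and 114 against 503 and 478 in the bed nucleus. The gap was narrower in the amygdala, with 73.05 and 53.6 against 119 and 117. Over the regions the difference was -1.47 ± 0.067, with -2.38 in the periaqueductal gray and -0.77 in the amygdala, and it depended on region (interaction adjusted p 6.38e-06). Of the other H2-D1 probe sets, 97540_f_at was lower (-1.21 ± 0.087) and 97541_f_at, near background, did not pass (-0.06, adjusted p 0.860).

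H2-K1 was lower on all 3 of its probe sets. On 93120_f_at C3H/HeJ read 148, 201 and 358 and FVB/NJ 266, 471 and 617 (-1.01 ± 0.080), on 97700_at the difference was -0.63, and on 97125_f_at C3H/HeJ was at background on every array, from -13.0 to 12.5, against 14.7 to 121 in FVB/NJ. H2-K2 read 43.0, 51.7 and 78.9 against 98.8, 226 and 402 without overlap (-1.75 ± 0.095). H2-Q4 (-0.80) and H2-Q1 (-0.51) were lower, and B2m, which lies on another chromosome, was lower with overlapping arrays (-0.24 ± 0.075, adjusted p 0.0359). The B2m call was lost in 26 of 49 alternative settings, that of H2-Q1 in 5 and that of H2-Q4 in 1. Class I genes are near-identical and these probe sets can read several of them, so the share of each gene is uncertain.

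Over the histocompatibility list, 15 genes were tested, of which 5 were lower and 0 higher (33.3%, against 7.43% of all probe sets), with a median of -0.07. On the stretch of chromosome 17 from the H2-K genes to the H2-T and H2-M genes, 17 of 90 probe sets passed (18.9%, against 7.43% of all tested), 13 lower and 4 higher. Most of the 13 lower were class I probe sets, which can read several of these genes, so they are not separate counts. The other probe sets that passed were split evenly between lower and higher. Those that passed include genes with no role in antigen presentation. The heat shock gene Hspa1b read 31.1, 46.3 and 120 against 96.2, 155 and 298 (-1.40 ± 0.107), while Hspa1a near it did not pass (-0.19, adjusted p 0.186). The acyltransferase Agpat1 was lower (-0.76), complement C2 was lower (-0.61), and the traffic gene Vps52 was higher (0.51). Chromosome 17 as a whole had 38 of 381 probe sets passing (9.97%).

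Glo1 also lies on chromosome 17, at chr17:30592861-30612659 in GRCm38.p6, outside that stretch. It encodes glyoxalase 1, which clears methylglyoxal, and a duplicated segment holding it is known in some inbred strains. On 93269_at C3H/HeJ read 820, 1134 and 1679 and FVB/NJ 401, 544 and 776, with no overlap (1.03 ± 0.049, adjusted p 4.65e-22). On 93268_at the difference was 1.06 ± 0.079. Dnah8, a neighbour of Glo1, did not pass on the 1 of its 2 probe sets tested (-0.00, adjusted p 0.998). It read 52.6 against 52.7, near the median brain value of 54.42, so the lack of a call says little about the gene. Btbd9 and Glp1r had no named probe set on the array.

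Of 36 glyoxalase, glutathione and peroxide or superoxide removing genes, 4 were higher in C3H/HeJ and 3 lower (19.4%, against 7.43% of all probe sets tested, median -0.01). Higher were Glo1, the glutathione reductase gene Gsr (0.39 ± 0.106, adjusted p 0.0125), the microsomal transferase gene Mgst1 (0.46 ± 0.079) and Gsto1 (0.26). Gsr overlapped between the strains, with 58.6, 118 and 209 against 60.3, 85.2 and 132. Its difference was 0.15 over the 4 regions labelled in 1 round and 0.86 over the 2 labelled in 2 rounds. Of 49 alternative settings, Gsr did not pass in 8 and Mgst1 in 2. Lower were the glutathione transferase genes Gstm3 on 97681_f_at (-0.41 ± 0.065) and Gstm1 (-0.29) and the mitochondrial peroxiredoxin gene Prdx3 (-0.27). A further Gstm3 probe set made from the same sequence, 97682_r_at, read 178 against 176 and did not pass (0.02, adjusted p 0.946). The Gstm3 call thus rests on 97681_f_at alone. Of the genes with known strain variants, Nnt, the mitochondrial transhydrogenase, was lower (-0.37 ± 0.077), as 1 of 4 tested, a call lost in 3 of 49 alternative settings. Pde6b, Tyr, Hc and Gria4 were on the array below the level tested, Tlr4 was not named on it, and Ahr read 28.4 and 30.1 as medians (0.08, adjusted p 0.726).

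**Figure D3:**
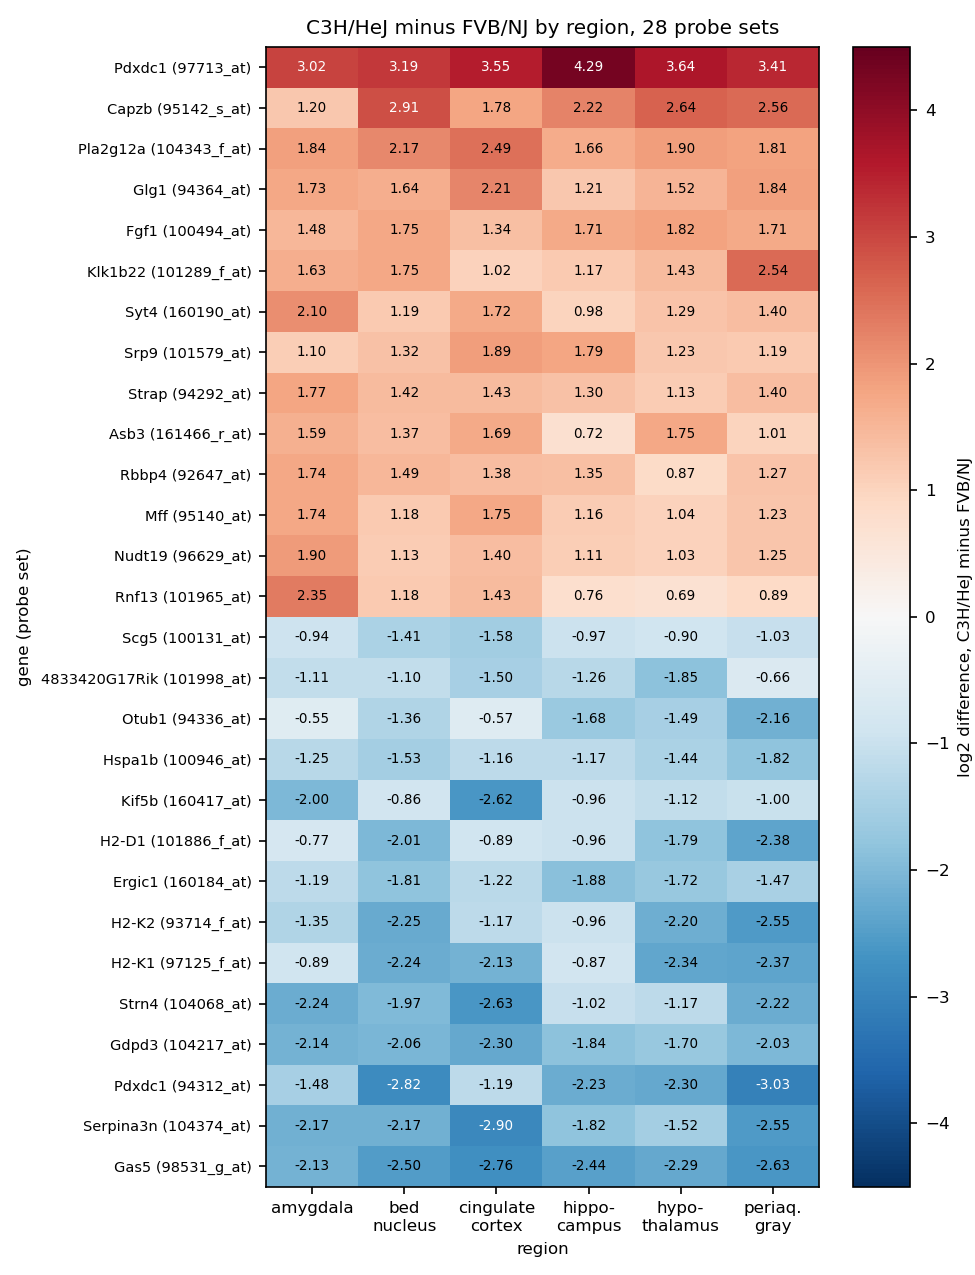
Log2 difference, C3H/HeJ minus FVB/NJ, for 28 probe sets (rows) in 6 regions (columns), with red for higher in C3H/HeJ and blue for lower and the value in each cell. Every row keeps its sign across the columns, with values from 0.69 to 4.29 for the higher and -0.55 to -3.03 for the lower probe sets.

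Within single regions, tested with 2 or 3 arrays a strain, the counts differed widely. In the amygdala 782 probe sets passed (9.63%), with 395 higher (4.86%) and 387 lower (4.77%). In the hypothalamus 446 passed (5.49%), with 182 higher (2.24%) and 264 lower (3.25%). The cingulate cortex and the periaqueductal gray each had 245 (3.02%). In the former 135 were higher (1.66%) and 110 lower (1.35%), and in the latter 146 higher (1.8%) and 99 lower (1.22%). The bed nucleus had 181 (2.23%), with 107 higher (1.32%) and 74 lower (0.911%), and the hippocampus 109 (1.34%), with 66 higher (0.813%) and 43 lower (0.529%). Only 40 probe sets passed in all 6 regions, and 1158 passed in exactly 1. Of the 54 probe sets called over the brain, 53 passed in the periaqueductal gray and 43 in the hippocampus.

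These regional counts rest on few arrays. Leaving out C3H/HeJ amygdala replicate 1 or 2 gave 356 or 486 calls there, and leaving out FVB/NJ amygdala replicate 1 or 2 gave 272 or 422. In the hypothalamus the same steps gave 282 or 188 without a C3H/HeJ array and 120 or 202 without an FVB/NJ array. In the periaqueductal gray they gave 136 or 99 and 117 or 97. In the hippocampus 64 remained without C3H/HeJ replicate 2, 69 without FVB/NJ replicate 1 and 64 without FVB/NJ replicate 2. The cingulate cortex had 152 without FVB/NJ replicate 2 and the bed nucleus 111 without FVB/NJ replicate 1. With the scan day as a block, the amygdala had 152 calls, the cingulate cortex 59, the hypothalamus 247 and the periaqueductal gray 61. Except in the hippocampus, no scan day held both strains in a region, so within a region strain and scan day cannot be told apart. In the amygdala the C3H/HeJ arrays were also scanned 2 times each and the FVB/NJ arrays 1 time.

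The size of the strain difference depended on the region for 563 probe sets (6.93%), among them 19 of the 54 called over the brain. Leaving out either amygdala array of C3H/HeJ gave 316 or 371 such probe sets, leaving out either of FVB/NJ gave 271 or 296, and leaving out either FVB/NJ hypothalamus array gave 268 or 352. Capzb had the greatest interaction (F 17.9, adjusted p 6.38e-06). Its difference was 2.91 ± 0.140 in the bed nucleus, where the arrays read 755, 839 and 864 against 101.3 and 88.7, and 1.20 ± 0.153 in the amygdala, with 460 and 329 against 144 and 178. Rnf13 ran the other way: 386 and 349 against 53.5 and 65.6 in the amygdala (2.35 ± 0.172), but 310 and 313 against 182 and 191 in the hypothalamus (0.69 ± 0.172). Mff and Kif5b differed more in the amygdala and cingulate cortex, the regions amplified in 2 rounds, than in any other region: Mff by 1.74 and 1.75 and Kif5b by -2.00 and -2.62. Since no other region was amplified in 2 rounds, a dependence that sets these regions apart cannot be told from one on the labelling.

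Other genes with a called interaction passed within some regions and not within others. Syn2, a synapsin of presynaptic vesicles, was lower in C3H/HeJ in the amygdala (290 and 243 against 645 and 563, -1.14 ± 0.166) and the cingulate cortex (226 and 257 against 457 and 468, -0.90), with values near equal in the hippocampus (916 and 931 against 939 and 901). Rhou was lower in the hypothalamus on 162011_f_at, at 11.4 and 19.9 against 99.1 and 124 (-2.01 ± 0.258). Over the brain neither Rhou probe set passed: 162011_f_at differed by -0.31 (adjusted p 0.0575) and the brighter 96747_at by -0.10 (adjusted p 0.643). Celsr2, a cadherin of planar polarity, was lower in the amygdala, at 41.4 and 57.5 against 159 and 128 (-1.29 ± 0.187). Smad4, the shared mediator of transforming growth factor signals, was higher in the amygdala (360 and 372 against 210 and 202, 0.78) and lower in the hypothalamus (110 and 103 against 210 and 211, -0.89). Hoxa4, a homeobox gene, stayed at 69.6 or less on 162402_r_at, where it was higher in the hypothalamus (55.5 and 69.6 against 14.9 and 20.2, 1.23) and lower in the periaqueductal gray (8.89 and 13.5 against 43.2 and 37.2, -1.05). The brighter Hoxa4 probe set 97747_r_at averaged 273 against 300 over the brain. There it did not pass (-0.13, adjusted p 0.469), nor did 162402_r_at (0.16, adjusted p 0.421).

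In the hypothalamus Tshb, the beta subunit of thyrotropin, read 392 and 283 in C3H/HeJ and 30.1 and 27.0 in FVB/NJ (2.97 ± 0.531, adjusted p 0.000219). Outside the hypothalamus no array read above 44.5. This subunit is made in the pituitary and in the pars tuberalis, which adjoins the hypothalamus. The pituitary hormone Gh read 117 and 188 against 71.5 and 1205 on the same hypothalamic arrays, and Prl 30.5 and 37.2 against 25.2 and 92.7. Over all brain arrays Cga, also on the anterior pituitary list, reached 446 in C3H/HeJ and 356 in FVB/NJ. The summed level of the 9 anterior pituitary genes tested was 2474 to 5605 in C3H/HeJ and 2459 to 9671 in FVB/NJ over the arrays labelled in 1 round. Much of this sum is Pcsk1n, with medians of 2480 and 2217 over all brain arrays, so it says little about the hormone genes. The part of pituitary tissue in the Tshb difference was not tested. Of these 9 genes, Tshb alone passed over the brain (0.695 ± 0.214), a call lost in 21 of 49 alternative settings, with 0.24 when the hypothalamus was left out. In the amygdala Pdyn, the dynorphin precursor, read 98.6 and 48.8 against -5.33 and -11.1 on 99840_at (adjusted p 0.000958), with an interaction that did not pass (adjusted p 0.0540). Over the brain neither 99840_at (adjusted p 0.282) nor the brighter Pdyn probe set 161987_at (0.18, adjusted p 0.329) passed. In the hippocampus Baiap2l1 read 62.5 and 58.6 against values below 0 (adjusted p 1.78e-07). Pnmt, the enzyme that makes adrenaline, was below 0 on both C3H/HeJ hypothalamic arrays and 191 and 247 in FVB/NJ (adjusted p 0.0133), but its 3 bed nucleus arrays of C3H/HeJ ranged from 1.77 to 277. These Pnmt values are of 161917_i_at, and over the brain neither it (adjusted p 0.906) nor 101719_at (-0.12, adjusted p 0.806) passed. No size is given for the regional differences of Pdyn, Baiap2l1 and Pnmt, since with values below 0 the pseudocount sets it.

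For some of the differences the other 4 strains all lay on the same side. Of the 54 called probe sets, 17 had all 4 other strains nearer to C3H/HeJ and 6 had all 4 nearer to FVB/NJ. Of the 17, 13 were higher in C3H/HeJ. In the rest of the 54, the other strains were divided. A nearer strain need not match: Cd59a averaged 34.7 in 129S6/SvEvTac, nearer to C3H/HeJ (109) than to FVB/NJ (255). Mff averaged 515 in FVB/NJ and 1329 to 1412 in the other 5 strains, and Capzb 135 against 644 to 778. FVB/NJ likewise stood apart for Glg1, Fgf1, Rbbp4, Rnf13, Acad9, Klhl7 and Aebp2 on the low side, and for Otub1 (412 against 156 to 178) and Hspa1b (168 against 45.7 to 68.4) on the high side. C3H/HeJ stood apart for Ergic1 (27.6 against 103 to 114), Hbegf (212 against 66.6 to 83.9), Hccs (272 against 118 to 142) and Klk1b22.

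In other genes the strains fell into 2 levels with several strains at each. Srp9 averaged 706 to 759 in C57BL/6J, C3H/HeJ and 129S6/SvEvTac and 261 to 275 in A/J, FVB/NJ and DBA/2J. Strap and Syt4 were low in FVB/NJ and 129S6/SvEvTac alone, and Nudt19 in FVB/NJ and DBA/2J alone. Asb3 was near 9 in A/J, DBA/2J and FVB/NJ (9.05 to 9.09) and between 43.9 and 48.0 in the others. In 21 of the 54 probe sets the widest step between neighbouring strains took up at least 80% of the range over all 6, and all 21 steps fell between C3H/HeJ and FVB/NJ, on which the probe sets had been called. FVB/NJ was alone on its side in 9 of these, C3H/HeJ in 2, and in 10 both sides held at least 2 strains. Serpina3n was graded, with 93.3 to 100.1 in A/J, C3H/HeJ and C57BL/6J, 215 in DBA/2J and 491 to 495 in FVB/NJ and 129S6/SvEvTac. These are levels with no test. Among the 15 pairs of strains, the 54 calls of C3H/HeJ and FVB/NJ lay within a range of 37 to 62.

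**Figure D4:**
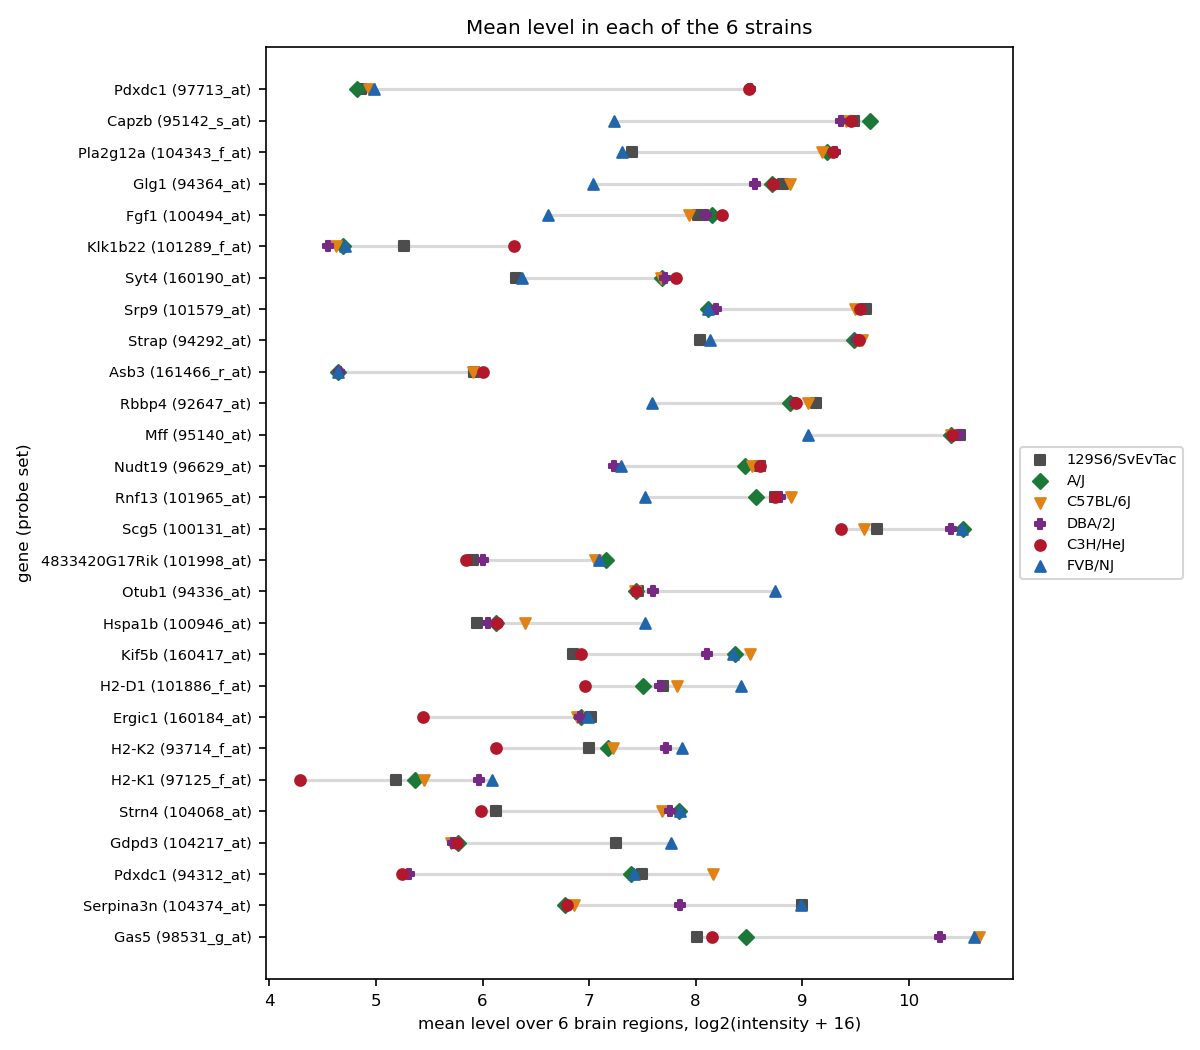
Mean level over 6 brain regions in log2(intensity + 16) (horizontal axis) of 28 probe sets (rows) in each of 6 strains, 1 symbol a strain. Mff, Capzb and Otub1 show FVB/NJ alone, Ergic1 shows C3H/HeJ alone, and Srp9 and Asb3 show 3 strains at each of 2 levels.

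Red blood cell genes were lower in C3H/HeJ, all 4 of 4 tested, where 7.43% of all probe sets passed. Their median was -0.72, against -0.0057 over all probe sets. Hba-a1, an alpha globin, read 130, 1321 and 2333 against 418, 2127 and 5803 (-0.93 ± 0.154, adjusted p 1.29e-05), and Hbb-b2, a beta globin, differed by -0.90 ± 0.174. Alas2 (-0.55), of heme synthesis, and Car2 (-0.34), a carbonic anhydrase that oligodendrocytes also make, were lower. Alas2 did not pass in 19 of 49 alternative settings, Car2 in 2 and each globin gene in 1. The summed level of the list over arrays labelled in 1 round was 2280 to 3524 in C3H/HeJ and 3516 to 8596 in FVB/NJ, and in 2 rounds 1039 to 2274 and 1726 to 3016.

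Meningeal and fibroblast genes had 3 of 17 lower and 0 higher (17.6%, against 7.43% of all probe sets tested, median -0.22). On lists this short the share was not tested against that of all probe sets. These were Igf2, an imprinted growth factor (-0.79 ± 0.244, adjusted p 0.0327), and the matrix genes Ogn (-0.55) and Dcn (-0.53). Of 49 alternative settings, Igf2 did not pass in 26, Ogn in 21 and Dcn in 7. Summed levels overlapped, at 2500 to 5855 and 3307 to 11926 in 1 round. Choroid plexus genes had 1 of 9 lower (11.1%), again Igf2, with a median of -0.38. Ttr, the defining choroid plexus gene, did not pass (-0.999 ± 0.594, adjusted p 0.433). In the amygdala Ttr read 117 and 798 against 4093 and 4236, and in the bed nucleus 4334, 1314 and 24.97 against 4350 and 3394. Whether blood, meninges or choroid plexus in the dissected tissue had a part in other differences was not tested.

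Of 9 myelin genes 3 were lower and 0 higher (33.3%, against 7.43% of all probe sets tested, median -0.25). The share of a list this short was not tested against that of all probe sets. Padi2, which turns arginine of myelin protein into citrulline, read 31.6, 75.8 and 159 against 49.6, 153 and 294 (-0.85 ± 0.106, adjusted p 2.60e-08), and Mal (-0.34) and Mog (-0.28) differed less. Mog did not pass in 33 of the 49 alternative settings, Mal in 11 and Padi2 in 1. In the hypothalamus Padi2 read 85.3 and 75.8 against 273 and 294. Of 13 astrocyte genes (23.1% passing) 2 were lower, Serpina3n and Gfap, and 1 was higher, the glutamine synthetase gene Glul (0.25 ± 0.070, adjusted p 0.0126). Ly86 alone of 11 microglia and complement genes passed (0.51, a share of 9.09%), as did the endothelial gene Eng alone of 12 (0.42, 8.33%). Glul and Eng each did not pass in 8 of the 49 alternative settings, and Ly86 in 3.

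Against 7.43% of all probe sets tested, the lists of neuronal genes had shares from 0% to 10%, and on lists this short these cannot be read as differing from it. Of 20 immediate early genes, Dusp6, a phosphatase that switches off ERK, was higher (0.63 ± 0.107, adjusted p 1.85e-05) and Nptx2 lower (-0.24). Dusp6 read 394 and 524 against 249 and 336 in the cingulate cortex and 212 and 235 against 55.9 and 93.0 in the amygdala. Ddc, which makes dopamine and serotonin from their precursors, was higher (0.40 ± 0.098) as 1 of 17 monoamine genes, and the interneuron gene Reln was lower (-0.30) as 1 of 15. Reln did not pass in 32 of the 49 alternative settings, Nptx2 in 18, Ddc in 5 and Dusp6 in 2. None passed of 7 GABA-A receptor, 11 glutamate receptor, 11 stress axis or 20 neuropeptide genes, with medians of 0.03, 0.06, 0.09 and -0.05. At an unadjusted p below 0.05 (limma), 0, 0, 1 and 3 of them lay, in that order. None passed of 10 hippocampal, 9 hypothalamic, 12 subpallial, 12 midbrain, 11 pallial or 10 thalamic genes either, with 2, 1, 1, 2, 0 and 1 at an unadjusted p below 0.05. Of 52 respiratory chain genes 1 was higher (Ndufv3, 0.40) and 2 lower (Cox6a1 and Ndufa6, both -0.21), and of 33 proteasome genes 1 was higher (Psmc2, 0.19). Cox6a1 did not pass in 32 of the 49 settings, Ndufa6 in 15, Psmc2 in 13 and Ndufv3 in 4.

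**Figure D5:**
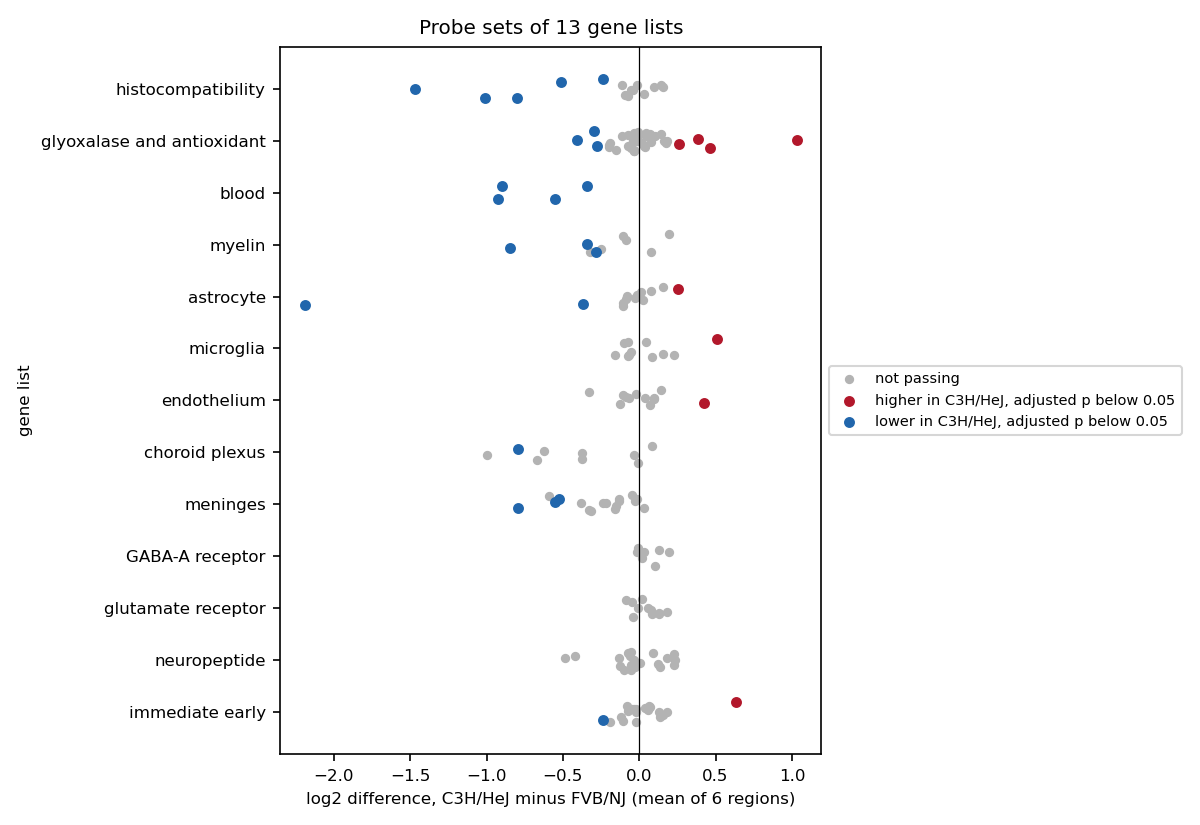
Log2 difference, C3H/HeJ minus FVB/NJ (horizontal axis), of the tested members of 13 gene lists (rows), 1 probe set a gene, with vertical scatter for legibility. Colour marks an adjusted p below 0.05, and all 4 blood genes lie on the low side while no GABA-A receptor, glutamate receptor or neuropeptide gene passed.

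Within the only scan day that held both strains in 1 region (hippocampus, 1 C3H/HeJ and 2 FVB/NJ arrays), 54 of 54 had the sign of the mean over regions, with a median difference of 1.18 in that direction. These 3 arrays were among those on which the 54 were called, so the shared sign is no separate evidence. On chromosome Y, Eif2s3y (0.996 ± 0.067) and Kdm5d (0.64 ± 0.134) were both higher in C3H/HeJ, and all animals were labelled male.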

How the data were processed

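Each value is the signal intensity of 1 probe set of an Affymetrix MG_U74Av2 array on a linear scale, as the authors deposited it. Of the deposited brain intensities 6.3% are below 0. Which software, background step and scaling made them is not given in the sources used here, and no further normalization was made. The number of arrays limits the precision.

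Negative values were raised to 0 before log2(intensity + 16) was taken and fitted with limma 3.58.1 (R 4.3.3) over the 75 brain arrays as 36 means of strain and region. The strain difference is the mean over 6 regions, each weighted equally. Of 12488 probe sets, 66 controls were left out, and 8121 with at least 1 group averaging above 54.42 (the median brain value) were tested. The platform annotation gave 1 gene symbol for 7325 of these, several for 263 and none for 533, and 7317 symbols were brought up to date through RefSeq. Adjusted p-values follow Benjamini-Hochberg over 8121 probe sets, with a threshold of 0.05, and a called difference is also at least 2-fold. Dependence on region was tested as the strain by region interaction. The procedure was also run on simulated data with independent arrays, which does not cover arrays that share animals or a scan day.

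Named genes are the 14 highest and 14 lowest over the brain with 1 sign in all regions, those with the greatest differences in a region or interaction, up to 4 members of each gene list, and Glo1, Btbd9, Dnah8, Glp1r, Gsr, Tlr4, Gria4, Pde6b, Tyr, Hc, Ahr, B2m, H2-K1 and H2-D1 in any case; a few other called genes were added after their values were seen. A list takes the brightest tested probe set of each gene. The strains, gene lists and genes were chosen with earlier results of these data known. Alternatives covered the pseudocount, scaling, filter, arrays fitted, prior, blocks (replicate number, scan day, animal) and arrays or regions left out. The numbers of replicates do not pair the arrays: deviations of arrays with the same number correlated between -0.17 and 0.26 over the regions. The experiment files gave scan day, chip lot, number of scans and animals.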

Additional observations from a re-analysis of the deposited data

Results flagged for a closer look

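The strain difference depended on region (limma interaction test, adjusted p) for 19 of the 54 probe sets called over the brain. Those among the 28 named for the brain were Capzb (6.38e-06), H2-D1 (6.38e-06), Rnf13 (0.000177), H2-K2 (0.00337), Kif5b (0.00808), Pdxdc1 94312_at (0.0122), Mff (0.0130), 4833420G17Rik (0.0196), Serpina3n (0.0215) and Otub1 (0.0377). H2-K2 ranged from -0.96 in the hippocampus to -2.55 in the periaqueductal gray, and Otub1 from -0.55 in the amygdala, where it did not pass, to -2.16 in the periaqueductal gray. The amygdala and cingulate cortex alone were labelled in 2 rounds, so for them region and labelling cannot be told apart.

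The strain difference also depended on region for genes that passed in few regions: Syn2 (0.000137), Rhou (0.000334), Celsr2 (0.000334), Hoxa4 (0.000445), Smad4 (0.000553), Baiap2l1 (0.00101), Tshb (0.0261) and Pnmt (0.0284). H2-Q1 (0.00364) was lower in C3H/HeJ in the hypothalamus (-2.03), as was the endothelial gene Vwf (0.0392, difference -1.61). The AMPA receptor gene Gria3 (0.00736) was lower there too (-0.77), and Neurod2 (0.00865), a transcription factor of cortical neurons, was higher there (1.57). Sst (0.0217), the somatostatin precursor, was lower in the amygdala (-0.63), and so was Cox6a1 (0.0490, difference -0.84). The complement gene C1qb (0.0482) passed in no single region.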

How the results depend on the processing

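The 54 calls over the brain ranged from 52 to 60 when arrays were left out, with 25 to 30 higher and 25 to 31 lower in C3H/HeJ. A pseudocount of 64 gave 29 calls (14 higher, 15 lower), since it shrinks the differences of dim probe sets. Without a fold minimum, 603 became 316 to 620 with arrays left out (356 without all replicates 1, 316 without all replicates 2), 209 with the 12 means of strain and region as samples and 174 with only the 2 regions labelled in 2 rounds. The 28 probe sets named for the brain kept their sign and an adjusted p below 0.05 under every setting run, except Otub1 with only the 2-round regions (adjusted p 0.395). Of the 28, 6 were under 2-fold with a pseudocount of 64 (Klk1b22, Asb3, H2-K1, Ergic1, Hspa1b and 4833420G17Rik) and 4 others when regions were left out (Rnf13, Kif5b, H2-D1 and Otub1). Syn2 reversed with only the 4 regions labelled in 1 round (0.13, adjusted p 0.272).

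Calls within regions depended more on the setting. With arrays left out they ranged from 119 to 837 in the amygdala, 82 to 203 in the bed nucleus, 103 to 280 in the cingulate cortex, 35 to 117 in the hippocampus, 106 to 479 in the hypothalamus and 45 to 252 in the periaqueductal gray, and those of the interaction from 57 to 703. Only the 25 arrays gave 286 in the hypothalamus, 163 in the periaqueductal gray and 72 for the interaction, from fewer samples. Quantile normalization gave 739 in the hypothalamus. With the scan day as a block there were 152 in the amygdala, 59 in the cingulate cortex, 247 in the hypothalamus, 61 in the periaqueductal gray and 238 for the interaction. Of the alternatives chosen after seeing the data, the number of scans as a block gave 440 in the amygdala and 318 for the interaction, the chip lot as a block gave 79 in the bed nucleus, 100 in the hypothalamus and 66 in the periaqueductal gray, and averaging both FVB/NJ bed nucleus arrays gave 77 there. The causes of the changes under normalization and blocks were not tested. The replicate number as a block moved the count for the strain by region interaction to 847 and kept 54 of the 54 brain calls, and since the numbers do not pair the arrays this is no paired analysis.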
